A study of Drosophila melanogaster with 7 samples.

Results

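The 6 genes described here are ush, which encodes a cofactor of GATA transcription factors, and the GATA factor genes pnr, srp, grn, GATAd and GATAe. They are 6 of the 11610 genes with a named probe, and each was measured by 1 probe, named through its Entrez gene number. The set was chosen from the measured log ratios of ush, known to be large, together with the GATA factors as its protein family. The ratios between cleaved and intact cohesin below are therefore a description of the members and are given without a test.

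The study compared salivary glands of crawling Drosophila melanogaster larvae of the third instar on 7 two-colour arrays, each with RNA from 1 sample of each kind. All animals were w1118 with 1 copy of hs-TEV, a heat-inducible gene for a protease, so that the heat shock and the protease were common to both sides of every ratio. The cleaved glands carried Rad21(TEV), a form of the ring-closing cohesin subunit that the protease cuts, on the Rad21ex15 chromosome over Rad21ex3. The intact glands had uncut Rad21 over Rad21ex3, either the genomic gene (arrays 1.1, 1.2 and 1.3) or, on a Rad21ex3 chromosome, the tgRad21 transgene (arrays 2.1 to 2.4). The heat shock lasted 45 min at 37 °C, and glands were collected after a further 10 to 12 h. The heat-shock promoter is not limited to the gland, and the stocks differ in more than the protease site, so a stock difference and cleavage cannot be told apart. The files hold ratios without channel intensities, so transcript levels and the gland's own markers could not be checked as levels. In whole glands, a change in the number of cells of a type and a change in RNA per cell cannot be told apart.

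Ratios are read as log2, where 0 means equal signal, and signs are given as deposited. Neither the log base nor the numerator is given in the sources used here. A positive ratio likely means more transcript in the cleaved glands, since the ecdysone receptor gene EcR was negative on 7 of 7 arrays and cohesin loss is known to lower it in fly neurons. The ratios were also taken as already turned to 1 direction on all arrays. Across probes, Pearson's r lay between 0.011 and 0.481 over 12 pairs in which the dyes were swapped, where unturned ratios would set them against each other. Had they not been turned, the fitted value of ush would be 0.24 ± 0.16 (SE), and 0 probes would pass the test. Turning swaps the cleavage and dye terms of the fit used below, so these are the values of its dye term.

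GATA factors are zinc finger proteins that bind DNA at short sites for which the family is named. In the fly, srp directs the formation of blood cells, fat body and endoderm, pnr patterns the dorsal ectoderm, the bristles of the thorax and the heart, and GATAe maintains the midgut. The ush protein belongs to the Friend of GATA family: it does not bind DNA by itself in the known examples, but binds the zinc finger of the Pnr and Srp proteins and turns their action from activation towards repression at many targets.

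The cofactor gene ush was strongly positive on every array. The fitted means of pnr, srp, grn and GATAe lay between −0.04 and 0.21, with single arrays from −1.33 to 0.996, and that of GATAd was 0.98. Against genomic Rad21 the log2 ratio of ush was, in the order of arrays 1.1 to 1.3, 3.22, 3.31 and 2.94. Against transgenic Rad21, in the order of arrays 2.1 to 2.4, it was 3.39, 4.20, 2.97 and 3.24. All 7 values thus lay within a narrow band except array 2.2, which stood above the rest. The fitted mean, with a term for the dye, was 3.29 ± 0.16 (SE, n = 7 arrays), a ratio of 9.78-fold if the base is 2. By that mean ush ranked 22 from the most positive of 14569 probes.

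The SD of ush over the 7 arrays was 0.42, and 28.4% of all probes had a smaller SD. On 6 arrays ush ranked between 14 and 93 from the top of all probes. On array 1.3 it ranked 502, although its ratio there was close to those of the other arrays. That array had an upper tail wider than the others: 7.52% of its probes exceeded a log2 ratio of 2, against 0.714% to 1.92% on the other 6.

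**Figure D1:**
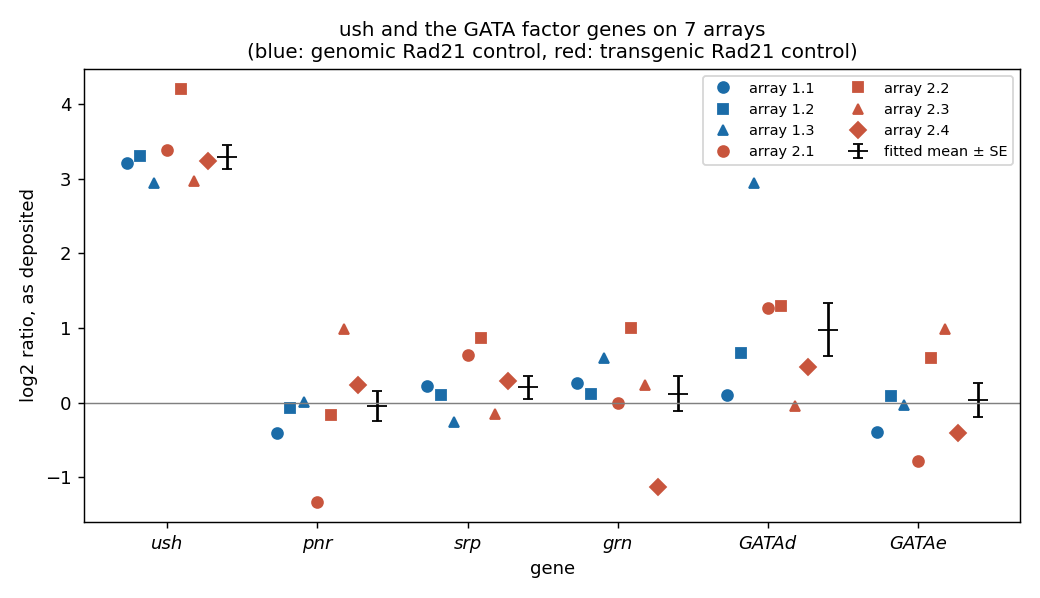
Log2 ratio as deposited (vertical axis) of ush and the 5 GATA factor genes on each of 7 arrays, blue for genomic and red for transgenic Rad21 controls, with the fitted mean ± SE in black. All ush values lie between 2.94 and 4.20, and among the GATA genes only GATAd on array 1.3 reaches that range.

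The gene of Pannier, pnr, showed no common direction. With genomic Rad21 controls its log2 ratio was, in array order, −0.40, −0.07 and 0.01. With transgenic controls it was −1.33, −0.16, 0.99 and 0.23. It was negative on the 4 arrays where the cleaved sample carried Cy5 (1.1, 1.2, 2.1 and 2.2) and positive on the 3 where it carried Cy3. The signs as deposited thus split by dye and not by the kind of control. On array 1.3, however, the value was close to 0, and it was −0.05 with the array median subtracted. Means were −0.49 and 0.41 for the Cy5 and Cy3 orientations. The dye coefficient of pnr was −0.45 ± 0.20 (SE, limma adjusted p = 0.504), in a fit where 0% of probes passed for the dye (0 probes, with 1445 at an unadjusted level under 0.05). The fitted mean of pnr for cleavage was −0.04 ± 0.20. Its lowest value came from array 2.1, the array with the widest spread (SD 1.18 over all probes). Without that array the fitted mean was 0.10 ± 0.18.

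The gene of Serpent, srp, lay close to 0 with a slight lean to positive values. Against genomic Rad21 its log2 ratio was 0.22, 0.11 and −0.27, and against transgenic Rad21 0.64, 0.86, −0.16 and 0.28. It was positive on 5 of 7 arrays, with the 2 negative values on arrays where the cleaved sample carried Cy3. The fitted mean was 0.21 ± 0.15 (SE), and 50.2% of all probes had a larger one in absolute size.

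The 2 factors best known as partners of the Ush protein were thus far below ush on each array. The log2 ratio of ush exceeded that of pnr by 3.43 ± 0.92 (SD, n = 7 arrays, lowest 1.98) and that of srp by 3.08 ± 0.20 (lowest 2.75). Of the 5 differences, that to srp had the smallest SD. The correlation of srp and ush was 0.887 by Pearson and 0.893 by Spearman, over 7 arrays on which both genes share the dye orientation and the array. Their dye coefficients were alike, 0.24 ± 0.16 (SE) for ush and 0.25 ± 0.15 for srp. Neither passed for the dye (limma adjusted p = 0.597 and 0.567). Pearson's r of srp and ush was 0.860 without arrays 2.2 and 1.3, the farthest from the median of ush. For pnr and ush Pearson's r was −0.318, and −0.881 without those arrays, and for GATAe it changed from 0.140 to −0.876. For grn it was 0.376 and −0.185, and for GATAd 0.018 and 0.868, so the values for the 4 genes other than srp rest on those arrays. Over 7 arrays, genes outside the family had a higher r with ush than srp had, up to 0.978 for Fatp3.

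The other GATA genes are grn, known for its part in shaping appendages and in motor neurons, GATAd, and GATAe. The log2 ratio of grn was 0.26, 0.11 and 0.60 with genomic and −0.01, 0.996, 0.24 and −1.13 with transgenic controls. The lowest value, on array 2.4, and the highest, on 2.2, both came from the transgenic Rad21 set. The fitted mean of grn was 0.12 ± 0.24 (SE). For GATAe the log2 ratio was −0.39, 0.09 and −0.04 with genomic and −0.79, 0.60, 0.99 and −0.40 with transgenic controls. Signs were mixed in both sets, and the fitted mean was 0.03 ± 0.23.

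GATAd was the GATA gene with the largest ratio and the widest spread. Its log2 ratio was 0.11, 0.66 and 2.94 with genomic and 1.26, 1.297, −0.05 and 0.48 with transgenic controls. It was positive on 6 of 7 arrays, and the highest value came from array 1.3, which had the wide upper tail. The fitted mean was 0.98 ± 0.35 (SE), and 0.52 ± 0.22 without array 1.3. On array 1.3 ush was 0.0053 below GATAd, and on the other 6 arrays it was higher. Of the remaining GATA genes, each lay below ush on 7 of 7 arrays.

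**Figure D2:**
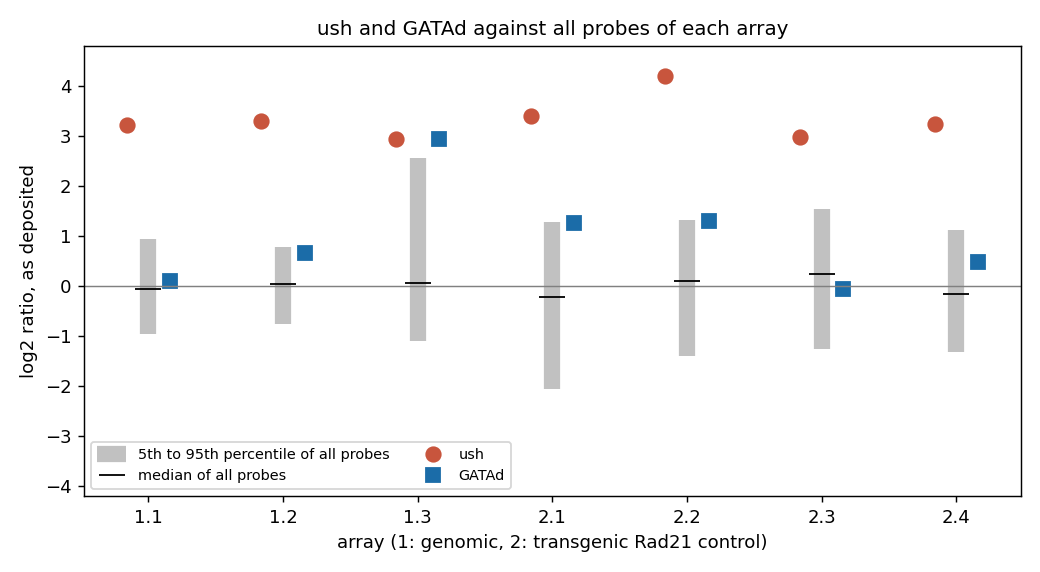
Log2 ratio as deposited (vertical axis) of ush (red circles) and GATAd (blue squares) on each array, with the 5th to 95th percentile of all 14569 probes as a grey bar and their median as a black line. The 95th percentile is 2.55 on array 1.3 and between 0.79 and 1.55 on the others, and ush lies above the bar on all 7 arrays.

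By the size of the fitted mean the order was ush at 3.29, GATAd at 0.98, srp at 0.21, grn at 0.12, GATAe at 0.03 and pnr at −0.04. From srp to pnr, neighbours in this order differed by less than their standard errors. In the fit across all probes, called at an adjusted p under 0.05, 1 of the 6 members passed, ush. Of all probes 7.95% passed, 4.15% with positive and 3.8% with negative ratios. Since the members were chosen by this contrast, nothing is read from that count.

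A comparison that the choice did not use was whether the members' ratios differed between the kinds of control. The transgenic minus genomic difference in log2 ratio for ush was 0.39 (95% interval −0.37 to 1.15), with set means of 3.45 ± 0.53 (SD, n = 4) and 3.16 ± 0.19 (SD, n = 3). For srp it was 0.49 (−0.19 to 1.16), for GATAe 0.17 (−0.99 to 1.33) and for pnr −0.06 (−1.11 to 0.98). For grn it was −0.24 (−1.42 to 0.95) and for GATAd −0.56 (−2.28 to 1.17), or 0.90 without array 1.3. None of the 6 passed (limma, adjusted p = 0.9998 for each), and neither did any other probe in this fit (0 of 14569, 0%, with 621 at an unadjusted level under 0.05, and 1 called without the dye term). For ush the sign of the difference is not settled by this interval, which excludes a difference as large as the ratio itself. Scaling the arrays to equal spread turned the difference of ush to −1.68 (adjusted p = 0.813). The scaling used the median absolute deviation of each array, which is not given here. By SD, the spread of all ratios was smallest on arrays 1.1 and 1.2, at 0.677 and 0.552.

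**Figure D3:**
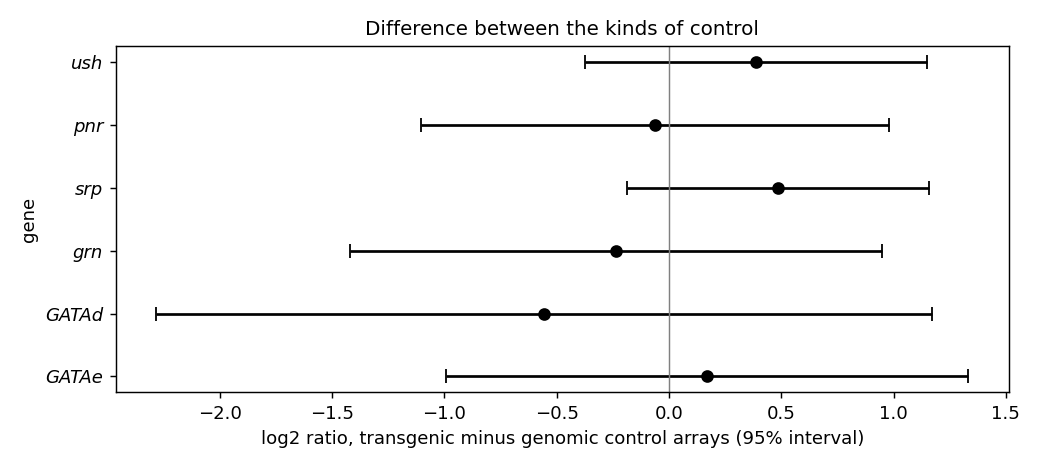
Difference in log2 ratio between arrays with transgenic and genomic Rad21 controls (horizontal axis, with 95% intervals from the fit with a dye term) for each member. All 6 intervals include 0, the narrowest for srp and ush and the widest for GATAd, from −2.28 to 1.17.

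The genomic neighbours of the members were looked at because cohesin is bound along chromosomes and can affect linked genes. In the RefSeq gene order, ush lies on 2L between MED15, for a subunit of the Mediator complex, and cbt, for a zinc finger transcription factor. MED15 lay at a log2 ratio of 0.45 ± 0.15 (SE, limma adjusted p = 0.111) and did not pass. cbt was negative on 7 of 7 arrays, at −0.79, −0.68 and −0.98 with genomic and −0.06, −0.81, −2.59 and −3.01 with transgenic controls. Its values on arrays 1.3, 2.3 and 2.4, where the cleaved sample carried Cy3, were below all others. The dye coefficient of cbt was 0.80 ± 0.25 (SE, limma adjusted p = 0.499). Its fitted mean was −1.39 ± 0.25 (SE, limma adjusted p = 0.0147), the opposite sign to ush. Leaving out array 1.2 or 2.4 ended this call, with adjusted p reaching 0.0574, and so did leaving out the dye term (0.0611).

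Further along on that side, Spp, for signal peptide peptidase, lay at −0.78 ± 0.27 (limma adjusted p = 0.139) and Ets21C, for a stress-responsive Ets factor, at 0.11 ± 0.31. On the other side CG4297 and CG4133 lay at 0.03 ± 0.21 and 0.02 ± 0.28. None of the 6 nearest measured genes of ush was positive past the test, and MED15, the highest, was positive on 4 of 7 arrays.

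The genes srp, GATAe and pnr are next to each other on 3R, with no other measured gene between them, and all 3 lay between −0.04 and 0.21. Their nearest measured neighbours Hel89B (0.43 ± 0.20) and Jhbp4 (0.12 ± 0.15) did not pass either. Next to grn on 3R, Arl8, for a small GTPase of lysosomes, was positive on 7 of 7 arrays at 0.72 ± 0.15 (SE, limma adjusted p = 0.0234). The call of Arl8 did not hold when array 1.1, 1.2, 2.1, 2.2 or 2.4 was left out, with adjusted p reaching 0.0820. The neighbours of GATAd on 2L lay between −0.33 (Cox10) and 0.47 (Sps2), none past the test. In all, 2 of 24 neighbouring genes passed, where 4.36% of all named genes passed as positive and 3.94% as negative by their leading probe.

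Genes that work with or below the GATA factors were taken from 6 lists written from textbook knowledge. Over 84 measured genes, 1 was positive and 3 were negative past the test, and the median log2 ratio of gene means was −0.05, against 0.02 over all named genes. Of all 11610 named genes, 4.36% were positive and 3.94% negative past the test, and the counts in each list below, marker lists included, stand beside these shares. Without array 2.4 the 4 calls became 1, and without array 1.1 or 1.2 they became 2. The highest mean among these 84 genes was 0.91, below that of ush. Since ush was chosen for its large ratio, and only 0.275% of all probes exceeded it in absolute size, nothing is read from this.

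Of the proteins that assemble with Pannier on proneural enhancers, and the genes around them, 0 of 18 measured passed (median 0.01). The largest ratios were those of dpp, for the ligand upstream of pnr and ush, at 0.78 ± 0.26 (limma adjusted p = 0.124, positive on 7 of 7 arrays), ap, for a LIM-homeodomain factor, at 0.60 ± 0.20, and the chromatin remodeller gene Iswi at 0.53 ± 0.17. Of 7 corepressor genes 0 passed (median 0.08), with HDAC1, for a histone deacetylase, at −0.45 ± 0.23, gro, for Groucho, at 0.22 ± 0.14 and Mi-2, for a chromatin remodeller, at 0.20 ± 0.22. Chi, for the bridge protein between Pannier and proneural factors, lay at −0.02 ± 0.31 and CtBP, for a corepressor that FOG proteins bind, at 0.18 ± 0.15. These 2 were named for their role after their values were seen.

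In the blood cell program of srp and ush, 1 of 22 measured genes was negative past the test (median 0.03). This was Glt, for a basement membrane glycoprotein, negative on 7 of 7 arrays from −1.16 to −0.37, at −0.64 ± 0.13 (SE, limma adjusted p = 0.0240). The scavenger receptor gene crq lay at 0.79 ± 0.24 and was positive on 7 of 7 arrays, but did not pass (adjusted p = 0.0916). The prophenoloxidase gene PPO3 (−0.54 ± 0.46) ran from −3.60 to 1.88 over arrays, and the phagocytosis receptor gene NimC1 (0.46 ± 0.46) from −1.98 to 2.96. Glt no longer passed when array 1.1, 1.2, 1.3, 2.2 or 2.4 was left out, its adjusted p then reaching 0.0886.

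In the fat body program of srp, 1 of 12 measured genes was positive past the test and 1 negative (median −0.11). The positive one was Apoltp, for an apolipoprotein of lipid transfer, at 0.91 ± 0.19, and the negative one the antifungal peptide gene Drs at −1.73 ± 0.23 (SE, limma adjusted p = 0.0278 and 0.0045). Apoltp did not pass when array 1.1, 1.2, 1.3, 2.1 or 2.4 was left out, with adjusted p reaching 0.0881. The fat body protein gene Fbp1 lay at −1.10 ± 0.33, the yolk protein gene Yp1 at 0.85 ± 0.27 and the antimicrobial peptide gene Mtk at −0.77 ± 0.36, none of them past the test.

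Of 11 measured genes of the endoderm and midgut, where GATAe acts, 0 passed (median −0.14). The digestive protease genes Jon65Aiii, lambdaTry and thetaTry lay at −1.19 ± 0.73, −0.54 ± 0.19 and 0.25 ± 0.23. In the dorsal ectoderm and heart program of pnr, 1 of 14 was negative past the test (median −0.20). It was peb, for the zinc finger factor Hindsight of the amnioserosa and trachea, at −1.32 ± 0.22 (SE, limma adjusted p = 0.0114), negative on 6 of 7 arrays from −2.68 to 0.14. Without array 2.4 the adjusted p of peb was 0.0537. Hand, for a heart transcription factor, lay at −0.45 ± 0.18, bap at −0.41 ± 0.30 and Him at −0.41 ± 0.34.

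**Figure D4:**
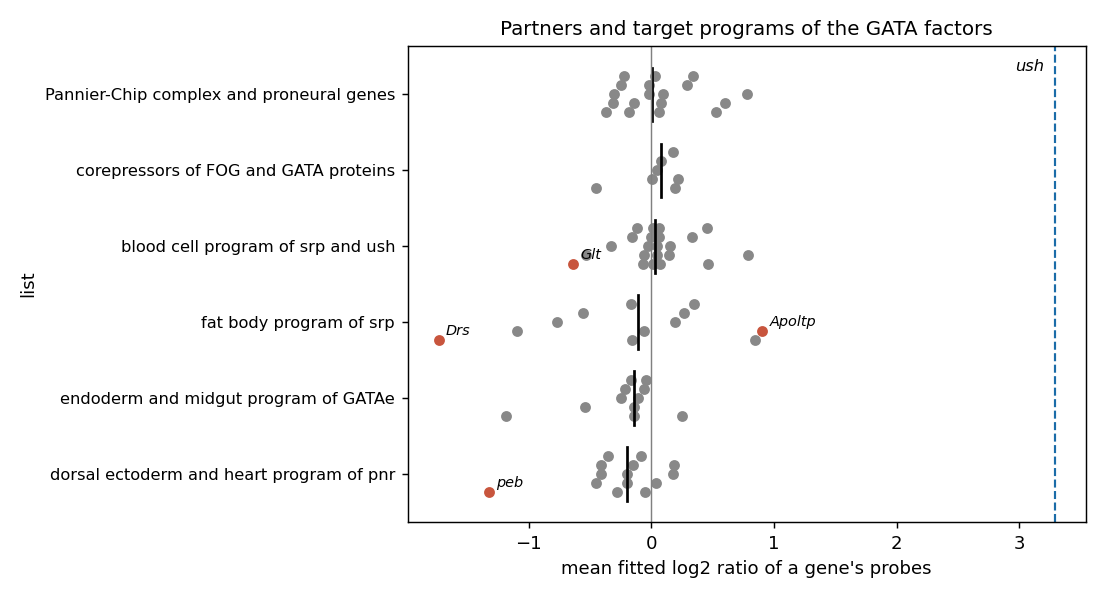
Mean fitted log2 ratio of each measured gene (horizontal axis) in 6 lists of partners and target programs, red and named where past the test and grey otherwise, with each list's median as a black bar. The dashed line marks ush at 3.29, and no listed gene lies above 0.91.

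Markers of 7 tissues, the salivary gland among them, were set beside these values. Counts are of markers with a named probe, which were fewer than those listed for each tissue. Whether any of the other tissues was present in the samples was not tested. Of 11 hemocyte markers 0 passed. Their median log2 ratio was lowest on array 2.1, at −0.57, and highest on array 2.2, at 0.65. The ratio of ush was 4.20 on array 2.2 and 3.39 on array 2.1, with a median of 3.24. Marker medians were not centred, and array 2.1 also had the lowest median over all probes, at −0.22. Of 7 fat body markers 1 was positive past the test, Apoltp, with array medians between −0.29 (2.3) and 0.78 (2.1). The other 6 did not pass and lay on both sides of 0. Among them Fbp1 was at −1.10 ± 0.33 and Mtp at 0.27 ± 0.19. Adh was at −0.91 ± 0.31 by its leading probe, with a mean of −0.56 over its 3 probes. Of 7 gut markers 0 passed, with medians between −1.42 (array 2.1) and 0.70 (2.3). Of 4 tracheal markers 0 passed (−1.04 to 0.83), as did 0 of 4 nervous system markers (−0.67 to 0.22). Of 5 muscle markers 1 was negative past the test, TpnC73F at −1.15 ± 0.20 (limma adjusted p = 0.0122, and 0.0562 without array 2.4). The other 4 did not pass, and lay on both sides of 0: Tm2 was at 0.85 ± 0.43 by its leading probe, with a mean of 0.12 over its 2 probes, and up at −0.46 ± 0.33. Of 11 salivary gland genes listed, Sgs3, Sgs7, Sgs8 and CrebA had no named probe. Of the 7 measured, 2 were negative past the test. They were the glue protein gene Sgs1 at −6.21 ± 0.31 and sage, for a gland transcription factor, at −1.13 ± 0.17. The other 5 did not pass and differed in sign. The prolyl hydroxylase genes PH4alphaSG1 and PH4alphaSG2 lay at 1.25 ± 0.36 and 0.75 ± 0.50, fkh, for the Fork head factor, at −0.01 ± 0.25, and the glue protein genes Sgs4 and Sgs5 at −0.48 ± 0.17 and −1.06 ± 0.29. The part of these tissues in the ratio of ush was not tested.

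The genes whose ratios were most like those of ush over the 7 arrays were found by the root mean square difference in log2 ratio. They were CG42675 (0.505), CG31516 (0.590), CG12535 (0.599), Ttc30 (0.617) and CAP (0.645). Their fitted means lay at 3.46, 3.35, 3.68, 2.77 and 2.89. By Pearson's r over 7 arrays, which ignores the mean, the 5 most like ush were Fatp3 (0.978), CG31337 (0.975), Su(fu) (0.964), Shmt (0.950) and NAT1 (0.931). These genes had fitted means between −0.58 and 0.47, and each was highest on array 2.2, as ush was. Without that array r was between 0.725 (NAT1) and 0.962 (Shmt), and with 11610 genes to choose from, high values of r over 7 arrays are a description only.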

How the data were processed

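For 14569 probes on 7 arrays the authors deposited 1 log ratio per probe and array, read here as log2. Background correction, normalization, filters and log base were not given in the sources used here. With ratios alone, precision is limited by the number of arrays. Ratios were used as deposited, without centring or turning. Arrays are from separately generated sample pairs, per the series' design text. Probes were named by the platform annotation, updated by the RefSeq gene table of the Release 6 assembly through Entrez number (12012 probes), accession (107) or synonym (481), and 58 kept the file's symbol. Another 96 had several symbols and 1815 none. Each probe was fitted with limma 3.58.1 in R 4.3.3 (lmFit, eBayes) with a cleavage effect and a dye term, adjusted by Benjamini-Hochberg over all probes, and called at an adjusted p under 0.05. The design text counts the dye orientations the other way round than the channel labels, which were used. The difference between control kinds came from a fit with 1 effect per kind and the dye term. A gene in a list was called by its leading probe, the one with the smallest p. The fits were tested on data with known changes. The members and lists were chosen with earlier results of these data known. The named genes are, by a fixed rule, all members, called list genes and up to 3 more per list by absolute mean, 5 genes most like ush by each measure, and the 3 nearest measured genes on each side. Chi, CtBP and the further muscle and gland markers given with values were named outside that rule, after their values were seen. Alternatives were single arrays left out, no dye term, centring, scaling, array weights, a set term, each control kind alone, and ratios turned by the dye labels.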

Additional observations from a re-analysis of the deposited data

Results flagged for a closer look

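The log2 ratio of ush on array 2.2, 4.20, stood apart from the other 6 arrays (2.94 to 3.39): its gap to the next value was 0.643 of the whole range, above Dixon's 95% critical value of 0.568 for 7 values. Chance gives such a gap in about 1 of 20 groups, and the 6 members were looked at over all 7 arrays and again over the 4 transgenic Rad21 arrays, where ush did not pass. Without that array the fitted mean of ush was 3.18.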

How the results depend on the processing

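Over 14 alternatives, leaving aside turned ratios, the fitted log2 ratio of ush stayed between 3.16 and 3.45, and no member moved by more than its SD over arrays. With the ratios turned by the dye labels ush was 0.24, GATAd −0.15, Drs 0.64, Sgs1 0.52, TpnC73F 0.13, cbt 0.80 and Arl8 −0.17, with 0 probes and 0 list genes called. These equal the dye coefficients of the main fit.
The count of called probes (1158) was 13 on the genomic and 138 on the transgenic Rad21 arrays alone, 389 at an adjusted p under 0.01, and between 515 and 1157 without single arrays (724 without 1.1, 578 without 1.2, 661 without 2.1, 515 without 2.4). Of the list genes, 2 passed with arrays scaled, 7 with array weights, 0 on either kind of control alone, and between 1 and 6 without single arrays (1 without 2.4, 2 without 1.1 or 1.2).
The difference between kinds of control changed sign for ush with arrays scaled (−1.68) and for pnr without the dye term (0.088) and with scaling (0.099). Without single arrays it ran from −0.51 to 0.34 for pnr (0.13 without 1.2), −0.62 to 0.31 for grn (0.082 without 2.4), −1.06 to 0.90 for GATAd and −0.15 to 0.54 for GATAe (−0.080 without 2.3), and 1 probe was called without the dye term. No paired analysis was possible because the arrays of the 2 kinds share no replicate number. Depth is unknown, since no intensities are given.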
